A study of Mus musculus with 2 samples.

Results

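The replication-dependent histone genes were taken as every gene in the deposited feature list whose symbol starts with *Hist1h*, *Hist2h*, *Hist3h* or *Hist4h*. The rule found 67 of 31053 genes, and 62 of them had 20 or more unique molecular identifiers (UMIs, each standing for 1 captured RNA molecule) over all deposited barcodes of both libraries. The 67 members comprised 6 linker histone H1 genes, 18 H2A genes, 18 H2B genes, 12 H3 genes and 13 H4 genes. The *Hist1* cluster on chromosome 13 held 54 of them, the *Hist2* cluster on chromosome 3 held 10, the *Hist3* pair on chromosome 11 held 2, and *Hist4h4* lay on chromosome 6.

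The cells came from mouse eyecups at e13.5, from which the cornea, lens and optic nerve had been taken off, and were profiled by droplet-based 3′ single-cell RNA-Seq. The control library was *Myrf* fl/fl, in which both copies of the transcription factor gene *Myrf* are floxed and no Cre is carried, and the mutant library was *Rx>cre Myrf* fl/fl, in which the same floxed gene is combined with a Cre driven from *Rx*, a gene of the early eye field from which retina and retinal pigment epithelium (RPE) derive. Each library pooled 3 samples, so each genotype was measured in 1 library. No test between genotypes was possible, and all intervals given here are 95% intervals that cover counting error only.

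Histones H2A, H2B, H3 and H4 form the core around which DNA is wound, and linker histone H1 binds where the DNA enters and leaves it. Genes of the replication-dependent class are mostly without introns, lie in clusters and are expressed as DNA is copied in S phase. Their messages typically end in a short stem-loop bound by the stem-loop binding protein, encoded by *Slbp*, and not in a poly(A) tail, while the replication-independent variants such as *H3f3a* and *H2afz* are polyadenylated and expressed through the cell cycle. The libraries were made from poly(A) RNA, so the counts describe messages that were primed from A and not the whole pool of histone messages.

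The annotated sequences of the members differ in ways that bear on such a count. The 16-base stem-loop was searched in the annotated transcripts (GENCODE, GRCm38), and 46 of the 67 members held it, against 27 of 21834 other protein-coding genes (0.124%). Some of the other 21 members had short annotated transcripts, such as 393 bases in *Hist1h2ai* and 312 in *Hist1h4k*. A stem-loop past the annotated end would be missed, so these 21 cannot be said to lack it. The matches below, with the stem-loop in capitals, are from the H2A gene *Hist1h2ap* and the H2A gene *Hist1h2ae*, the members with the most UMIs, from the *Hist3* pair *Hist3h2ba* (H2B) and *Hist3h2a* (H2A), which followed another pattern in the cell classes, and from the H4 gene *Hist2h4* and the H4 gene *Hist1h4i*, whose stem carries other letters.

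Hist1h2ap (chr13:21833026-21833049, minus strand): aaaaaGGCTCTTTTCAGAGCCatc

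Hist1h2ae (chr13:23570663-23570688, minus strand): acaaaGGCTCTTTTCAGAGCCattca

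Hist3h2ba (chr11:58949344-58949369, plus strand): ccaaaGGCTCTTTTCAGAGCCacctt

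Hist3h2a (chr11:58955167-58955192, plus strand): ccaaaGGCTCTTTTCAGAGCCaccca

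Hist1h4i (chr13:22040961-22040986, minus strand): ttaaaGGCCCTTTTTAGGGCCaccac

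Hist2h4 (chr3:96262934-96262959, minus strand): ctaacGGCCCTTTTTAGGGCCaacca

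The 4 H2A and H2B genes shared the same 16 bases. The annotated transcript of *Hist1h2ap* ended 3 bases after its stem-loop, whereas across the 46 members the median was 91 bases and 22 of them ended within 60. Members with a stem-loop held 88.6% of the histone UMIs in the control library and 89.0% in the mutant library. Of these members, 17 also had a poly(A) signal after the stem-loop, with 30.7% and 32.1% of histone UMIs, and 29 had none, with 57.9% and 56.9%. *Hist3h2ba*, *Hist3h2a* and *Hist1h2ae* were among the 17, with 169, 1643 and 151 annotated bases after the stem-loop. *Hist1h2ap* was among the 29. A run of 8 or more A was found in the transcripts of 7 members, and in 2 of them, *Hist1h2ao* and *Hist1h2ap*, it lay within 60 bases of the end. In *Hist1h2ap* the run of 12 A, in capitals here, stood directly before the stem-loop.

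Hist1h2ap (chr13:21833036-21833065, minus strand): cccgaaaagAAAAAAAAAAAAggctctttt

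*Hist1h2ao* carried the same 30 bases and had 67 UMIs. Of the 67 members, 62 had a single exon and 61 shared at least 1 stretch of 90 bases with another annotated gene, and these 61 held 92.7% and 93.1% of the histone UMIs. For 58 of them the other gene was a member, and *Hist2h2bb*, *Hist4h4* and *Hist3h2ba* shared such stretches only with genes outside the group. Of the 90-base stretches of *Hist1h2ap*, 92.4% occurred in another gene. Reads from such stretches can be assigned to the wrong copy or dropped, so the level of a single *Hist1* gene is less certain than that of its family. *Hist1h2be* overlaps the end of *Hist1h1e* on the same strand, and *Hist3h2a* overlaps *Trim17* on the same strand, whose own count was 5 UMIs in control and 7 in mutant.

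The start sites of these genes were compared in windows running from 250 bases before to 50 bases after the start (RefSeq, GRCm38.p6), which were found for 62 members, 1 of them with 2 windows. *Hist1h3a*, *Hist1h2bc*, *Hist2h2be*, *Hist2h4* and *Hist1h3f* had no window. Searched on both strands, CCAAT was in 54 of the 63 windows (85.7%) and in 37.3% of 32788 windows of other genes. The motif TATAAA was in 35 (55.6%, against 13.54%), and the octamer ATTTGCAT, known from H2B promoters, was in 14 (22.2%, against 1.70%). The families differed. CCAAT occurred in 51 of 51 windows of H1, H2A, H2B and H3 genes but in 3 of 12 windows of H4 genes. The 14 windows with the octamer were all among the 35 of H2A and H2B genes. Some H2A and H2B genes start close together on opposite strands, so their windows overlap and 1 match can be counted for both. The *Hist1h2ae* window, for example, includes the start of the H2B gene *Hist1h2bg* on the other strand. The windows of the 4 members on which the comparisons turn are given 5′ to 3′ on the strand of the gene, with these motifs in capitals on either strand (a match on the other strand reads as its reverse complement).

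Hist1h2ap (chr13:21833426-21833725, minus strand): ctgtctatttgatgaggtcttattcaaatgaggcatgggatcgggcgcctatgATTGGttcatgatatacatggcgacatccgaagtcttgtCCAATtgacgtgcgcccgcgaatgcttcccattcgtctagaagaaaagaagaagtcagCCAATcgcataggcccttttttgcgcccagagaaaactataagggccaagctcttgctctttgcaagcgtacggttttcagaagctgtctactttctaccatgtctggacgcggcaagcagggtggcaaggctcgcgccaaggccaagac

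Hist1h2ae (chr13:23571171-23571470, minus strand): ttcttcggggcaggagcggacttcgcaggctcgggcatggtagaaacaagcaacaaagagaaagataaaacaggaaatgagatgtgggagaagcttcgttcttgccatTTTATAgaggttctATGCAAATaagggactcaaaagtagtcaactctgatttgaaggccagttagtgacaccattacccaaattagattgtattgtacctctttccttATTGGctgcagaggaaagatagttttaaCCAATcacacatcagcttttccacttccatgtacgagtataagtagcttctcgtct

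Hist3h2ba (chr11:58948661-58948960, plus strand): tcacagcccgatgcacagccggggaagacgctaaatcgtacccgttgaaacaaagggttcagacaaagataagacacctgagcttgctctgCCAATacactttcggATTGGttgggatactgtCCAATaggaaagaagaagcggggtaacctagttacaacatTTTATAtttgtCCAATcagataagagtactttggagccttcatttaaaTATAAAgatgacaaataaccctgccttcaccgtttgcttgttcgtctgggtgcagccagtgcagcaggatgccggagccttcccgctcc

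Hist3h2a (chr11:58954435-58954734, plus strand): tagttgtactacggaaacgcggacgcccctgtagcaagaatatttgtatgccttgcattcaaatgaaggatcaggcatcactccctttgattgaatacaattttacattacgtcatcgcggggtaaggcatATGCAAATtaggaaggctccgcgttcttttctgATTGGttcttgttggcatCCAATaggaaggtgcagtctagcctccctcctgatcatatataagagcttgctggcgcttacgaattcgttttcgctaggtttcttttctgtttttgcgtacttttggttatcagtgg

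CCAAT occurred 3 times in the *Hist1h2ap* window, 4 times in that of *Hist3h2ba*, and 2 times in each of the other two. A match of letters describes the window and does not show that a factor binds there.

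The control library held 6039 barcodes with 63483835 UMIs and the mutant library 6754 barcodes with 75228861 UMIs. After filtering, 5468 and 6300 cells remained, with a median of 11332 and 11154 UMIs per cell. Cells were clustered without the members and named by markers, which gave 14 classes and left 712 and 588 cells unnamed. Of the 10 RPE markers, 8 were higher in RPE-like cells than in the other cells of each library, and the late markers *Rpe65* and *Lhfpl5* were at 0 there. All 10 retinal progenitor and all 10 ganglion cell markers were higher in their classes in both libraries. The targeted gene was read first. *Myrf* had 155 UMIs in control RPE-like cells, 74.1 CPM (UMIs per 1000000 UMIs of the class, interval 62.9 to 86.7), and 30 UMIs in mutant RPE-like cells, 20.01 CPM (upper bound 28.6), although 3′ tags can lie outside the deleted part. The libraries shared 72 barcode sequences, 67 of them among kept cells, and the 6 summed ratios compared between genotypes, classes and phases below kept their direction when these cells were left out.

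The histone genes took 186783 UMIs of the control library (0.294%) and 196822 of the mutant library (0.262%), and most of these came from few genes. H2A genes held 59.6% of the histone UMIs in each library. H1 genes held 14.3% and 13.7%, H2B genes 13.54% and 14.3%, H4 genes 8.81% and 8.52%, and H3 genes 3.73% and 3.88%. These shares describe what was captured and are not the proportions of the proteins, which the nucleosome holds in equal amounts for the core histones. *Hist1h2ap* alone had 84129 and 87107 UMIs, and the next members were *Hist1h2ae* with 17954 and 20354, *Hist3h2ba* with 15077 and 17730, and the linker histone genes *Hist1h1b* with 11893 and 11931 and *Hist1h1e* with 9507 and 9580. The first 5 members held 74.4% and the first 10 held 85.7% of all histone UMIs. *Hist1h4d*, *Hist1h4i*, *Hist3h2a*, *Hist1h2bc* and *Hist1h1c* completed the first 10. No UMI was counted for *Hist1h2bq*, *Hist1h2ba* and *Hist1h2aa*, of which the last 2 encode testis-specific histones, and the testis-specific linker histone gene *Hist1h1t* had 12 UMIs. Of the 90-base stretches of *Hist1h2bq*, 100% occurred in another gene, so its count of 0 does not show that it was not expressed.

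The summed level of the members differed widely between the cell classes of the eyecup. Neurogenic precursor-like cells, which express *Atoh7* and related genes as they leave the progenitor state, had the highest sum in both libraries, 5453 CPM (5370 to 5536) in control and 4924 CPM (4852 to 4997) in mutant. Retinal progenitor-like cells, the dividing cells of the neural retina, came next with 4585 CPM (4555 to 4615) and 4451 CPM (4421 to 4481). Both stood apart from the classes below them in each library. In the control library melanocyte-like (2867 CPM) and surface ectoderm-like cells (2828 CPM) followed with intervals that overlapped. The periocular mesenchyme-like (2275 CPM), macrophage-like (2200 CPM), endothelial-like (2181 CPM), muscle-like (2087 CPM), Schwann or neural crest-like (1923 CPM) and ganglion cell-like cells (1826 CPM) then formed a chain in which each interval overlapped the next. Amacrine or horizontal-like cells had 1606 CPM, photoreceptor precursor-like cells 1298 CPM and RPE-like cells 1277 CPM, the last 2 with overlapping intervals. The lowest level was in red blood cell-like cells, with 313 CPM (296 to 330) in control and 329 CPM (318 to 341) in mutant.

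**Figure D1:**
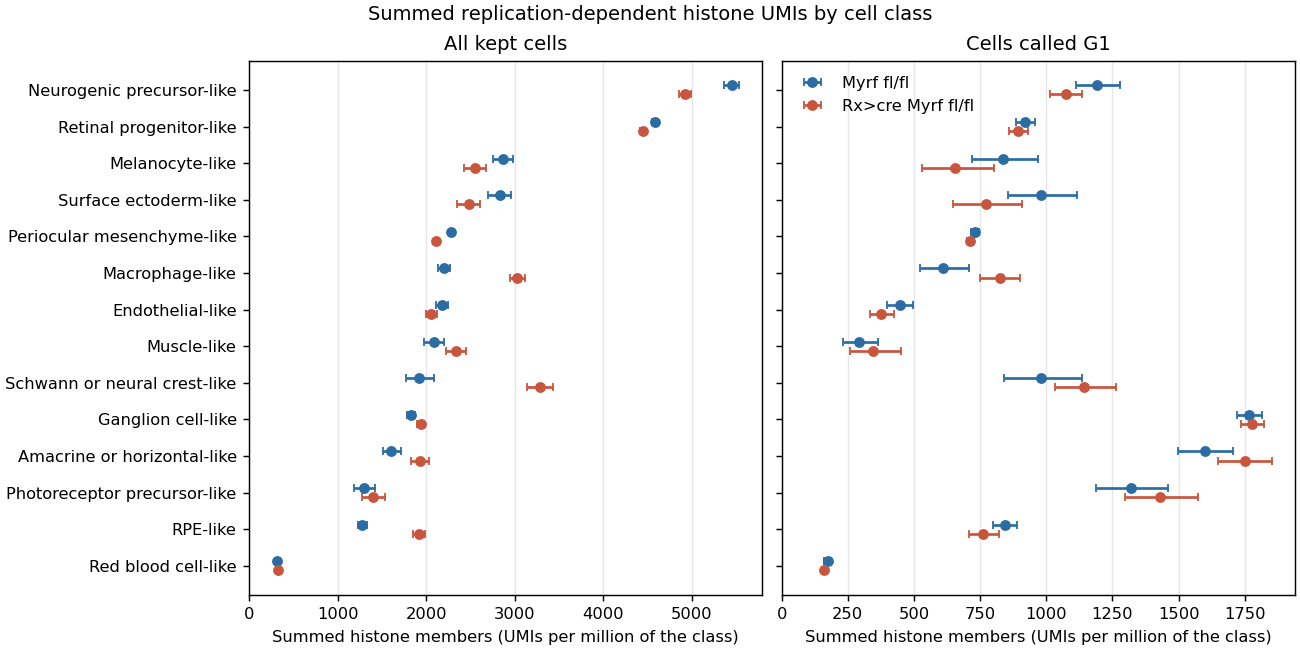
Summed UMIs of the 67 members per 1000000 UMIs of the class, CPM (x axis) in 14 cell classes (y axis) of the control and mutant libraries, with 95% Poisson intervals that cover counting error only, over all kept cells (left) and over cells called G1 (right). Neurogenic precursor-like and retinal progenitor-like cells are highest over all cells, with 5453 and 4585 CPM in control, and ganglion cell-like cells are highest among cells called G1, with 1766 CPM.

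In the mutant library the order below the 2 highest classes was different. Schwann or neural crest-like cells had 3285 CPM, macrophage-like cells 3030 CPM and RPE-like cells 1917 CPM. Amacrine or horizontal-like (1928 CPM), ganglion cell-like (1937 CPM) and RPE-like cells could not be ordered within their intervals. The Schwann or neural crest-like class held only 22 and 38 cells, and in the control 1 cell carried 48.5% of its histone UMIs.

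The members did not follow 1 pattern across the classes. Of 36 members examined singly, 25 in control and 23 in mutant had their highest level in neurogenic precursor-like or retinal progenitor-like cells. These 36 were picked by UMI totals and by ratios in these same data. The counts therefore describe this selection, and none was made over all members or all genes. The *Hist3* pair was the main exception. *Hist3h2ba* had 1054 and 1070 CPM in control and mutant ganglion cell-like cells, 1036 and 1140 CPM in amacrine or horizontal-like cells and 743 and 746 CPM in photoreceptor precursor-like cells. In retinal progenitor-like cells the same gene had 219 CPM in both libraries. *Hist3h2a* was at 217 and 218 CPM in ganglion cell-like cells and at 31.2 and 29.8 CPM in retinal progenitor-like cells. Most cells of these neuronal classes were called G1, although 10.8% and 7.34% of ganglion cell-like cells with at least 3000 UMIs were called G2/M. The pair made up 69.6% and 66.5% of all histone UMIs in ganglion cell-like cells. Its share was 76.8% and 71.3% in amacrine or horizontal-like cells, and 65.9% and 61.7% in photoreceptor precursor-like cells. In retinal progenitor-like cells it made up 5.46% and 5.59%.

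*Hist1h2ap* showed the reverse order. It made up 50.1% and 49.5% of histone UMIs in retinal progenitor-like cells and 9.28% and 11.5% in ganglion cell-like cells. Its level was 2295 and 2204 CPM in the former and 169 and 222 CPM in the latter. *Hist1h2bc*, an H2B gene, belonged to neither pattern. It was highest in melanocyte-like cells of the control (151 CPM) with RPE-like cells next (117 CPM), and highest in RPE-like cells of the mutant (139 CPM) with macrophage-like cells next (103 CPM), so that both pigmented classes stood high in the control. The linker histone gene *Hist1h1c* was highest in macrophage-like cells, at 101 and 153 CPM, with melanocyte-like cells next at 91.5 and 64.9 CPM.

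**Figure D2:**
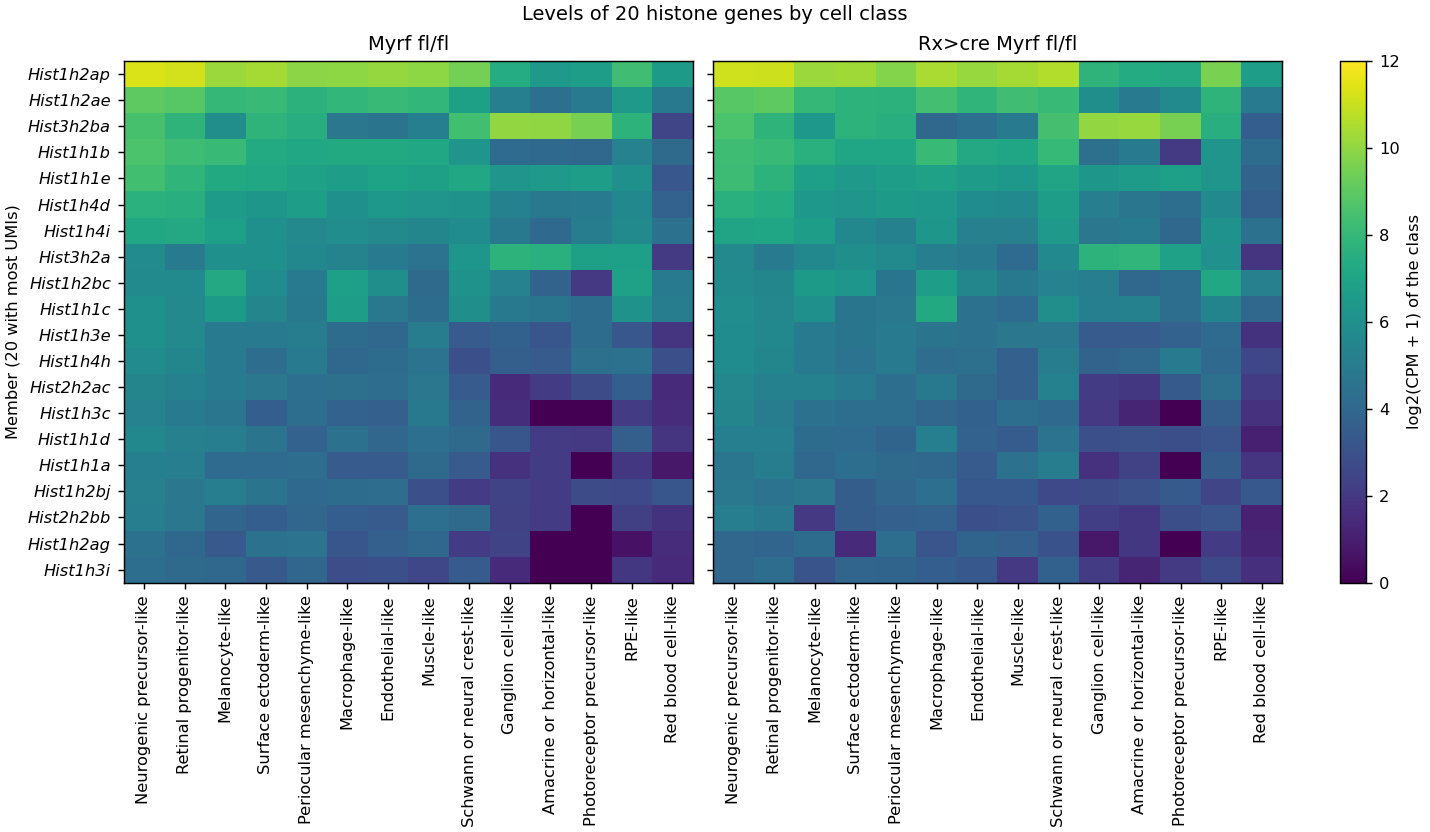
Levels of the 20 members with the most UMIs (rows) in 14 cell classes (columns) of the control (left) and mutant (right) libraries, as log2(CPM + 1) of the class. Hist3h2ba and Hist3h2a are brightest in the ganglion cell-like, amacrine or horizontal-like and photoreceptor precursor-like columns, where Hist1h2ap is dim.

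Single cells showed the same division. Cells were thinned to 3000 UMIs, and shallower cells were left out, which kept 222 of 332 control and 286 of 455 mutant ganglion cell-like cells and 1445 and 1509 retinal progenitor-like cells. In these, *Hist3h2ba* was detected in 95.0% and 91.6% of ganglion cell-like cells and in 46.9% and 44.6% of retinal progenitor-like cells. In red blood cell-like cells, taken as a reference for free RNA, the share was 2.25% and 2.91%. It was higher in other classes with low shares, at 6.19% and 4.85% in endothelial-like and 5.13% and 4.82% in macrophage-like cells. *Hist1h2ap* was detected in 66.1% and 62.3% of retinal progenitor-like cells, in 29.7% and 27.97% of ganglion cell-like cells and in 10.7% and 8.72% of red blood cell-like cells. The red blood cell-like class also held cells called S or G2/M, so its *Hist1h2ap* share is not a measure of free RNA alone. Over all cells and without thinning, *Hist3h2ba* was detected in 84.3% and 86.6% of ganglion cell-like, 73.4% and 72.4% of retinal progenitor-like and 6.73% and 11.9% of red blood cell-like cells. The *Hist1h2ap* shares were 82.0% and 80.3%, 56.9% and 53.4%, and 39.9% and 32.6% in retinal progenitor-like, ganglion cell-like and red blood cell-like cells, at median depths of 11134 and 10494, 13215 and 10152, and 22477 and 22724 UMIs. Of the thinned ganglion cell-like cells, 67.6% and 66.4% had a UMI of *Hist3h2ba* without one of *Hist1h2ap*, and of the retinal progenitor-like cells 37.8% and 36.4% had *Hist1h2ap* without *Hist3h2ba*.

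The spread among cells differed as well. Both classes had a median of 5 histone UMIs per thinned cell in both libraries. In ganglion cell-like cells the variance over the mean was 1.64 and 3.28 and the top 10% of cells held 22.6% and 25.7% of the histone UMIs. The corresponding values in retinal progenitor-like cells were 15.4 and 17.8, and 35.0% and 37.5%. Histone UMIs were spread more evenly over ganglion cell-like cells than over the progenitors.

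The first comparison set the dividing progenitors against ganglion cell-like cells, most of which were called G1, within each library. The summed members were higher in retinal progenitor-like than in ganglion cell-like cells, by a log2 ratio of 1.33 (1.29 to 1.36) in control and 1.20 (1.17 to 1.23) in mutant. The sum depended on a few members. Without *Hist1h2ap* the ratio was 0.47 and 0.39, and without the *Hist3* pair it was 2.96 and 2.69. Of the 55 and 57 members with 20 or more UMIs in the 2 classes, 46 and 48 were over 1.5 times higher in the progenitors and 3 and 5 over 1.5 times lower. Among all genes with as many UMIs, 24.0% and 24.3% were higher and 26.6% and 26.7% lower by that rule. The median member had a log2 ratio of 2.24 and 2.35, against -0.06 for the median gene in each library.

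The family sums separated the pair from the rest. H2A genes had a log2 ratio of 2.71 and 2.44, H3 genes 2.36 and 2.33, H1 genes 2.30 and 2.06 and H4 genes 2.18 and 2.07. H2B genes had -1.39 and -1.44, a sum in which *Hist3h2ba* was the largest entry. The linker histone gene *Hist1h1b* was at 305 and 274 CPM in retinal progenitor-like cells and 17.4 and 20.3 CPM in ganglion cell-like cells, a log2 ratio of 4.11 and 3.74. The linker histone gene *Hist1h1e* differed less, with 228 and 214 CPM against 76.4 and 79.4 CPM. The H2A gene *Hist2h2ac* had a log2 ratio of 4.28 and 3.40, *Hist1h2ab* 3.81 and 3.92, and *Hist1h1a* 3.77 and 3.69. The H3 gene *Hist1h3g* had 58 and 66 UMIs in the progenitors and none in ganglion cell-like cells. Against a floor of 3 UMIs in that group it was at least 3.57-fold and 5.10-fold higher. With members at 0 UMIs set at that floor, the medians were 2.16 and 2.33 and the counts of higher and lower members did not change.

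Members lower in the progenitors than in ganglion cell-like cells in both libraries were *Hist3h2ba*, with a log2 ratio of -2.26 and -2.29, *Hist3h2a*, with -2.80 and -2.87, and the H4 gene *Hist2h4*, with -0.99 and -1.62. The levels of *Hist2h4* were low, at 2.49 and 3.27 CPM in the progenitors and 4.78 and 10.0 CPM in ganglion cell-like cells. The H3 gene *Hist2h3c1* had -0.31 in the control and -2.11 in the mutant, and *Hist4h4* had 0.21 and -0.62.

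The second comparison followed the members through the cell cycle within retinal progenitor-like cells. Cells with at least 3000 UMIs, 1445 of 1619 in control and 1509 of 1707 in mutant, were called G1, S or G2/M from gene lists that hold no member, which put 232 and 255 cells into G1, a further 542 and 592 into S, and 671 and 662 into G2/M. Cells called G1 had a summed level of 921 and 894 CPM, cells called S one of 4592 and 3967 CPM, and cells called G2/M one of 5642 and 5855 CPM. The log2 ratio of S over G1 was 2.32 (2.26 to 2.38) and 2.15 (2.09 to 2.21), and that of G2/M over S was 0.30 (0.28 to 0.32) and 0.56 (0.54 to 0.58). The level was highest in the cells called G2/M, not in those called S. Of the called progenitors, 46.4% and 43.9% were called G2/M, against 37.5% and 39.2% called S. The calls rest on expression of gene lists, with no measure of DNA content. Whether the cells called G2/M were past S phase was not tested.

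The ratio of S over G1 was also above 0 in other dividing classes. It was 2.37 and 2.38 in periocular mesenchyme-like cells, 2.57 and 2.22 in neurogenic precursor-like cells, and 2.94 and 1.97 in endothelial-like cells, where only 20 and 16 cells were called S. In RPE-like cells it was -0.47 (-0.99 to -0.05) in control and 2.59 (2.44 to 2.74) in mutant, on 4 and 9 cells called S. G2/M over S did not keep 1 direction, with -0.11 (-0.16 to -0.06) in control and 0.57 (0.51 to 0.63) in mutant neurogenic precursor-like cells.

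**Figure D3:**
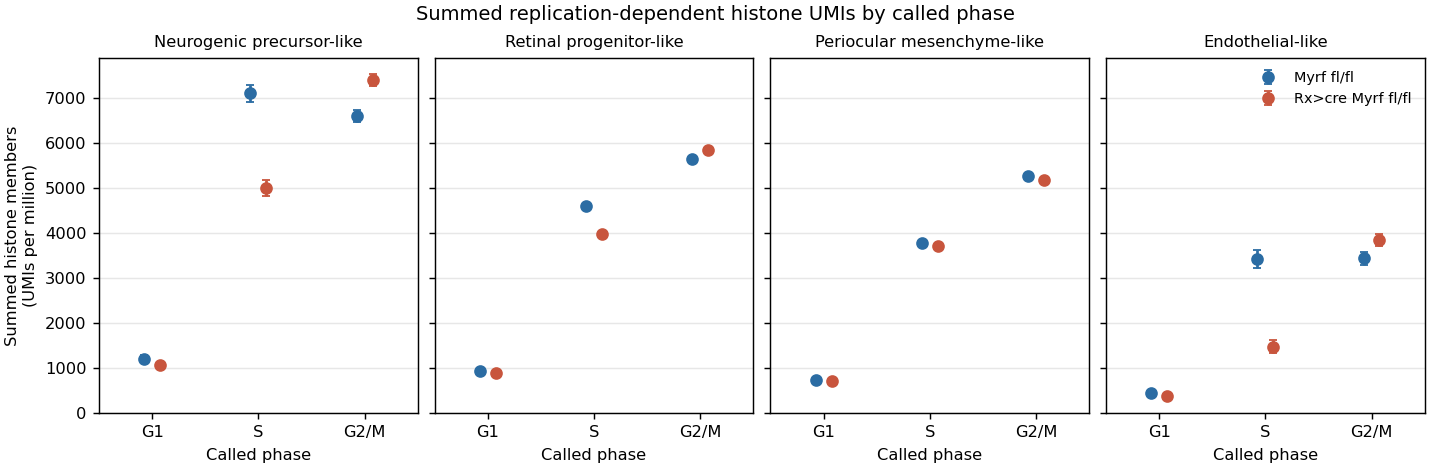
Summed UMIs of the members per 1000000 UMIs (y axis) in cells called G1, S and G2/M (x axis) of 4 dividing classes in the control and mutant libraries, with 95% Poisson intervals that cover counting error only. The level in cells called G1 is lowest in each panel, with 921 and 894 CPM in retinal progenitor-like cells against 4592 and 3967 CPM in cells called S.

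Of the 51 and 49 members with 20 or more UMIs in the S and G1 progenitors together, 45 and 43 were over 1.5 times higher in S and 3 were lower in each library. Over all genes, 9.32% and 8.41% were higher and 7.89% and 7.62% lower. *Hist1h2ap* was at 125 CPM in G1 and 2464 CPM in S of the control and at 102 and 2064 CPM in the mutant, a log2 ratio of 4.30 and 4.34. *Hist1h1b* had a log2 ratio of 3.93 and 3.97 and *Hist1h2ae* 3.46 and 3.32. The H4 gene *Hist1h4i* differed less, by 0.63 and 0.82, and it was at 82.3 and 67.0 CPM in cells called G1. The H2A gene *Hist1h2an* had 122 UMIs in control cells called S and none in G1, at least 15.8-fold higher against the floor of 3 UMIs. The median member had a log2 ratio of 1.91 and 1.97, or 1.88 and 1.95 with members at 0 UMIs set at the floor, against -0.03 and -0.04 for the median gene.

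The 3 members that were lower in S were the same in both libraries. *Hist3h2ba* had a log2 ratio of -0.64 and -0.68, *Hist3h2a* -0.84 and -0.74, and *Hist1h2bc* -0.69 and -1.08. *Hist3h2ba* had 316 and 325 CPM in progenitors called G1, 204 and 203 CPM in those called S and 206 and 202 CPM in those called G2/M, so that it moved little beyond G1 while *Hist1h2ap* was at 2464 and 2064 CPM in S.

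Set side by side, the class and phase comparisons share the retinal progenitor-like cells, so neither is independent of the other. *Hist3h2ba* had log2 ratios of -2.26 and -2.29 over ganglion cell-like cells and -0.64 and -0.68 for S over G1, and *Hist3h2a* had -2.80 and -2.87 beside -0.84 and -0.74. *Hist2h4* was lower in progenitors than in ganglion cell-like cells and higher in S than in G1, at least 2.99-fold in control against the floor of 3 UMIs and by a log2 ratio of 0.63 in mutant. *Hist1h2bc* was lower in S, with a log2 ratio of 0.38 over ganglion cell-like cells in both libraries.

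**Figure D4:**
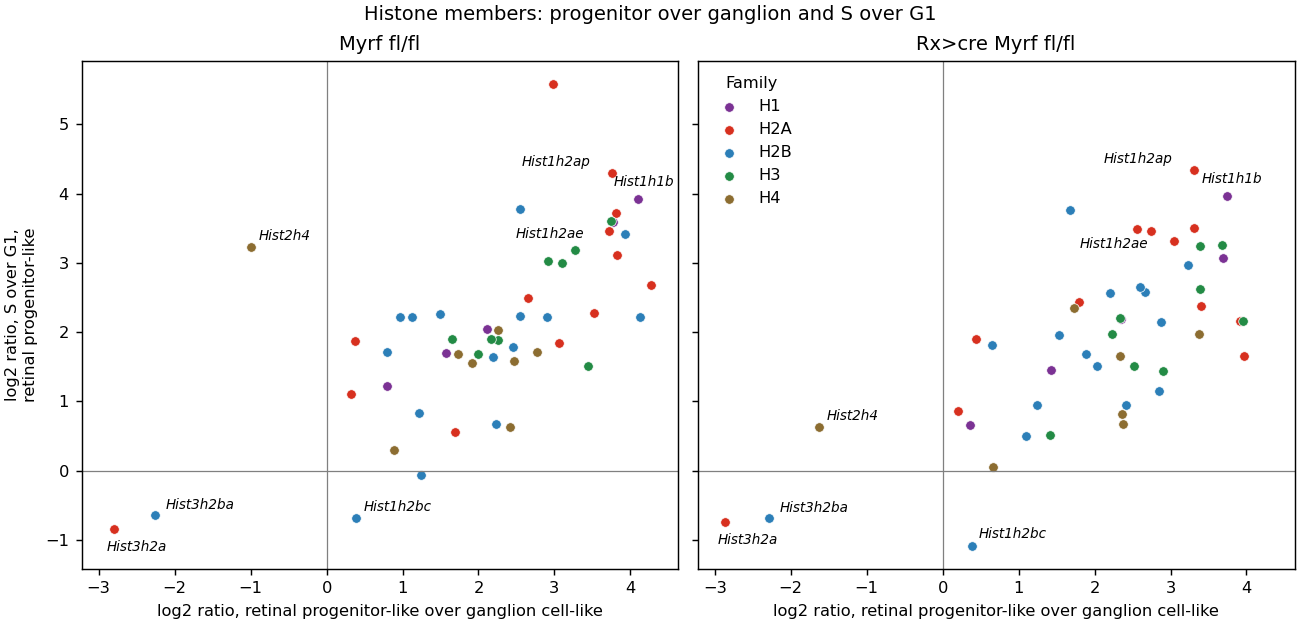
Each point is a member with 20 or more UMIs in both comparisons, coloured by histone family, with the log2 ratio of retinal progenitor-like over ganglion cell-like cells (x axis) and of S over G1 in retinal progenitor-like cells (y axis) in the control (left) and mutant (right) libraries, 1 UMI added to each sum. Hist3h2ba and Hist3h2a lie at the lower left in both panels, with -2.26 and -2.80 on the x axis in control, and points with no UMI in G1 depend on the added UMI.

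When only cells called G1 were compared, the order of the classes turned. Ganglion cell-like cells had 1766 and 1778 CPM, amacrine or horizontal-like cells 1600 and 1749 CPM and photoreceptor precursor-like cells 1319 and 1430 CPM. Neurogenic precursor-like cells had 1193 and 1073 CPM, retinal progenitor-like cells 921 and 894 CPM, RPE-like cells 843 and 763 CPM and periocular mesenchyme-like cells 732 and 712 CPM. Retinal progenitor-like over ganglion cell-like cells was then -0.94 in control and -0.99 in mutant. *Hist3h2ba* carried most of the difference, with 1107 and 1094 CPM in ganglion cell-like cells called G1, 590 and 570 CPM in neurogenic precursor-like and 316 and 325 CPM in retinal progenitor-like cells called G1. Outside the neural retina its level in cells called G1 varied, at 376 and 405 CPM in Schwann or neural crest-like, 300.4 and 280 CPM in surface ectoderm-like, 231 and 225 CPM in RPE-like, 219 and 233 CPM in periocular mesenchyme-like and 27.1 and 24.3 CPM in endothelial-like cells. *Hist1h2ap* did not show this gradient and was at 104 and 105 CPM in ganglion cell-like and at 125 and 102 CPM in retinal progenitor-like cells called G1.

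The genes around histone supply were followed in the same S over G1 comparison. Some of these genes belong to the S-phase list by which the cells were called, so their higher level in S was built into the calls and is left out of the counts. This holds for *Slbp* and *Casp8ap2* among the message processing genes and for *Chaf1b* and *Nasp* among the chaperone genes. Over all genes, 9.32% and 8.41% were over 1.5 times higher in S and 7.89% and 7.62% lower. Of the 10 other message processing genes with enough UMIs, 3 in control and 2 in mutant were over 1.5 times higher in S and none was lower. *Npat*, the co-activator of the histone loci, had a log2 ratio of 1.17 and 0.65 and *Eri1*, an exonuclease that trims the stem-loop end, 0.86 and 0.72. Of the 6 other chaperone genes, 3 passed that size in both libraries. The ratio was 3.76 and 4.16 for *Asf1b*, 1.74 and 2.21 for the chromatin assembly factor gene *Chaf1a* and 0.99 and 1.23 for the acetyltransferase gene *Hat1*. Of the 10 replication-independent histone genes outside the lists, 2 passed it in each library. The replacement variants *H3f3a* (-0.04 and 0.01) and *H3f3b* (0.11 and -0.03) had values near 0. Against ganglion cell-like cells, 5 of the 11 replication-independent genes were over 1.5 times higher in the progenitors and 1 was lower in each library. Over all genes in that comparison, 24.0% and 24.3% were higher and 26.6% and 26.7% lower. *H2afx*, the variant marked at DNA breaks, had 2.18 and 2.34 there and *H2afz* 1.41 and 1.51, while *H3f3b* had -0.63 and -0.68. *Slbp* was at 170 and 171 CPM in the progenitors and 51.4 and 61.0 CPM in ganglion cell-like cells, where the *Hist3* pair was high.

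The third comparison set the mutant against the control in RPE-like cells, the class in which *Myrf* was lower in the mutant. The class held 256 control and 155 mutant cells with 2672 and 2874 histone UMIs. The summed members were at 1277 CPM (1229 to 1326) in control and 1917 CPM (1847 to 1988) in mutant, a log2 ratio of 0.59 (0.51 to 0.66). The minimum of 20 UMIs was set over both libraries together. Of 22 members that met it in the class, 9 were over 1.5 times higher in the mutant and 3 over 1.5 times lower. By the same rule, 6.32% of all genes were higher and 10.9% lower. The median of the 22 members was 0.31, and that of all genes was -0.04. Without *Hist1h2ap* the ratio of the sums was 0.25.

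The families differed. H2A genes had a log2 ratio of 1.02 and H3 genes 0.88, while H1 and H4 genes each had 0.18 and H2B genes 0.03. The linker histone gene *Hist1h1b* went from 38.7 to 76.7 CPM, a log2 ratio of 0.98 (0.56 to 1.41), and *Hist1h1a* from 2.87 to 10.7 CPM. The H3 gene *Hist1h3c* went from 3.35 to 11.3 CPM and *Hist1h3e* from 8.60 to 17.3 CPM. *Hist2h2ac* went from 10.99 to 20.7 CPM. The intervals of these 5 members lay above 0, and those of *Hist2h2bb* and *Hist1h2be*, which were also over 1.5 times higher, included 0. *Hist1h1a* and *Hist1h3c* were low in the control and met the UMI minimum mainly through the mutant, so their place among the higher members is not separate support. *Hist1h2ap* was at 317 and 778 CPM and *Hist1h2ae* at 86.5 and 220 CPM.

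Other members were lower in the mutant. The linker histone gene *Hist1h1c* went from 70.7 CPM (148 UMIs) to 42.0 CPM (63 UMIs), a log2 ratio of -0.74 (-1.20 to -0.32). *Hist3h2a* went from 108 to 66.0 CPM, a log2 ratio of -0.70 (-1.06 to -0.36), and *Hist3h2ba* from 217 to 185 CPM, with -0.23 (-0.45 to -0.01). The *Hist3* pair made up 25.4% of the histone UMIs of control RPE-like cells and 13.1% in the mutant. *Hist2h2aa1* was at 8.12 and 4.00 CPM, on 17 and 6 UMIs. *Hist1h2bc* was at 117 and 139 CPM, with an interval that included 0. Ganglion cell markers moved with the pair, since all 10 were lower in mutant than in control RPE-like cells, their sum was at 206 CPM in control and 42.0 CPM in mutant, and *Sncg* was at 0 in the mutant. The neurogenic precursor markers had a sum of 280 CPM in control and 521 CPM in mutant, with 4 of 8 higher and *Olig2* at 0, and the 10 retinal progenitor markers a sum of 1294 and 1015 CPM, with 9 of 10 lower. Their part in these results was not tested.

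**Figure D5:**
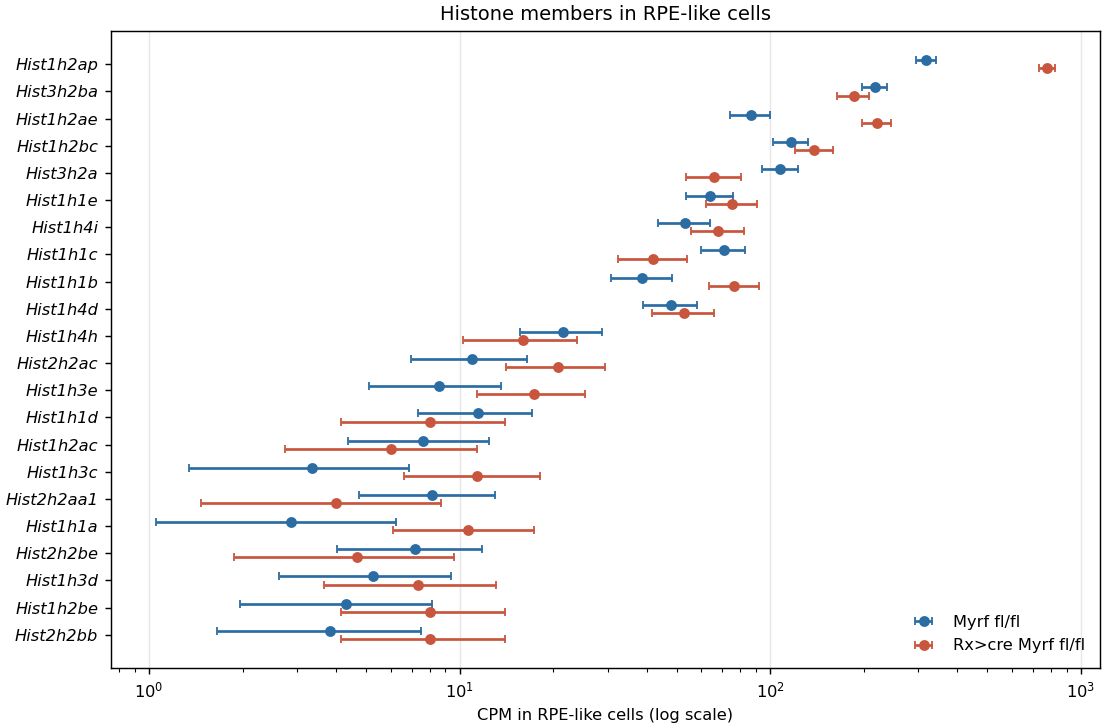
Levels of the 22 members with 20 or more UMIs in RPE-like cells (rows), in CPM on a log scale (x axis), in control (256 cells) and mutant (155 cells), with 95% Poisson intervals that cover counting error only. Hist1h2ap, Hist1h2ae and Hist1h1b lie to the right in the mutant, and Hist3h2a and Hist1h1c lie to the left.

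Few cells carried much of the sum. The 5 cells with the most histone UMIs held 27.1% of them in control and 44.4% in mutant, and without these cells the levels were 980 and 1187 CPM, a log2 ratio of 0.28. Of the RPE-like cells with at least 3000 UMIs, 134 of 256 in control and 81 of 155 in mutant, 83.6% and 71.6% were called G1. In cells called G1, 112 in control and 58 in mutant, the sum was at 843 and 763 CPM, a log2 ratio of -0.14, so the higher level of the mutant was not present there. In G2/M, with 18 and 14 cells, it was 4278 and 4186 CPM, a log2 ratio of -0.03. Only 4 and 9 cells were called S, which was too few to compare.

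Among the other genes of histone supply in RPE-like cells, 2 of 8 chaperone genes, 1 of 11 replication-independent histone genes and 0 of 12 message processing genes were over 1.5 times higher in the mutant. None was lower by that size. Over all genes, 6.32% were higher and 10.9% lower, so counts this small say little about the lists. *Asf1b* had a log2 ratio of 1.25, on 9 and 16 UMIs, *Chaf1b* 0.95, *Cenpa*, the centromeric H3 variant, 0.60 and *H2afz* 0.56. *Slbp* had 0.09 with an interval that included 0.

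Within cells called G1, single members kept or lost their difference. *Hist1h2ap* was at 87.0 and 87.3 CPM. *Hist1h1c* went from 62.6 CPM (103 UMIs) to 18.7 CPM (18 UMIs), a log2 ratio of -1.68 (-2.55 to -1.01). *Hist3h2a* was at 116 and 82.1 CPM, with -0.49 (-0.90 to -0.12), and *Hist3h2ba* at 231 and 225 CPM. *Hist1h2bc* was at 93.0 and 123 CPM, with 0.40 (0.04 to 0.75). The lower level of *Hist1h1c* in the mutant was also present in these cells.

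The fourth comparison set the genotypes against each other in retinal progenitor-like cells, which also derive from the eye field. The summed members were at 4585 CPM in control and 4451 CPM in mutant, a log2 ratio of -0.04 (-0.06 to -0.03). Of 60 members with 20 or more UMIs, 1 was over 1.5 times higher and 1 lower, where 1.83% and 3.56% of all genes were. The higher one was the H2B gene *Hist1h2bl*, at 3.63 and 6.01 CPM, with a log2 ratio of 0.72 (0.28 to 1.18), and the lower one was *Hist2h3c1*, with 34 and 20 UMIs and an interval that included 0. *Hist1h2ap* was at 2295 and 2204 CPM and *Hist3h2ba* at 219 CPM in both. Cells called G1 gave a log2 ratio of -0.04 for the sum and cells called S gave -0.21 (-0.23 to -0.19). The ratio for G2/M was 0.05 (0.04 to 0.07).

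The other classes ranged on both sides of these values. The log2 ratio of the mutant over the control was largest in Schwann or neural crest-like cells, 0.77 (0.64 to 0.91), on 22 control and 38 mutant cells. A single cell held 48.5% of the histone UMIs of that class in control and 16.2% in mutant. It was 0.46 in macrophage-like, 0.26 in amacrine or horizontal-like, 0.16 in muscle-like, 0.11 in photoreceptor precursor-like, 0.09 in ganglion cell-like and 0.07 in red blood cell-like cells. Ratios under 0 were -0.08 in endothelial-like, -0.11 in periocular mesenchyme-like, -0.15 in neurogenic precursor-like, -0.17 in melanocyte-like and -0.19 in surface ectoderm-like cells. In macrophage-like cells *Hist1h1b* had the highest ratio among members with 100 or more UMIs, 0.85, at 158 and 284 CPM, and the 5 cells with the most histone UMIs held 40.6% and 38.4% of them. In ganglion cell-like cells the highest was *Hist1h2ae*, from 35.4 to 61.9 CPM, with 0.80 (0.50 to 1.12), and the lowest was *Hist1h2bc*, with -0.19. With 1 library per genotype, none of these differences can be told apart from a difference between 2 pools of samples.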

How the data were processed

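The authors prepared 1 library per genotype and processed it with Cell Ranger on mm10. The deposited values are raw UMI counts per gene and called barcode. Per the labels, Cell Ranger was version 7.1.0, while the matrix header gives software version 3.0.0. The annotation release and the treatment of intronic reads are not given in the sources used here. Kept barcodes had at least 200 genes and at most 15% of UMIs from mitochondrial genes, after the study, whose upper limit of 2000 UMIs was run only as an alternative. Doublets (51 control, 74 mutant) were marked by Scrublet in scanpy 1.11.5 and left out. Cells were integrated and clustered in Seurat 5.3.0 (2000 variable features less 71, 30 components, resolution 0.8) with members, phase genes and related genes excluded, and each cluster was named only with 3 or more markers. Phases were called after thinning cells to 3000 UMIs. Members are counted at their 3′ end, so CPM was not scaled by length. Log2 ratios added 1 UMI to each sum, and intervals are exact binomial (ratios), Poisson (CPM) or Clopper-Pearson (shares), at 95%. A difference of over 1.5 times among genes with 20 or more UMIs was counted, with no test. The ratio calculation was run on simulated Poisson counts of class sums. These hold counting error only, with no spread between cells or libraries, so the run checked the calculation and not the results. Members named singly (36) had the 20 highest UMI totals, the 5 highest or lowest progenitor over ganglion ratios, 20 or more UMIs in RPE-like cells, or an extreme genotype ratio in a class. The members and gene lists were chosen with earlier results of these data known. The e15.5 and P0 samples were not analysed here. Alternatives covered cell filters, clustering, denominator, thinning and member choice. Some were chosen after seeing the data. Analyses used Python 3.11.15, scipy 1.17.1 and R 4.3.3.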

Additional observations from a re-analysis of the deposited data

Results flagged for a closer look

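The summed replication-dependent histone members had ratios of opposite sign in 2 classes of the lineage with Cre, but only the RPE-like value was far from 0. In RPE-like cells the log2 ratio of the mutant over the control was 0.59 (0.51 to 0.66), and in retinal progenitor-like cells it was -0.043 (-0.06 to -0.03). The latter was close to the median gene of that class, -0.02. In cells called G1 the signs were the same, with -0.14 in RPE-like and -0.04 in retinal progenitor-like cells. RPE-like cells called G2/M had -0.03, and 5 cells held 44.4% of the mutant RPE-like histone UMIs. The RPE-like value was not particular to the lineage with Cre. The ratio was 0.77 in Schwann or neural crest-like and 0.46 in macrophage-like cells, while others were under 0, down to -0.19 in surface ectoderm-like cells. The difference between the classes was not tested, since each genotype was 1 library.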

How the results depend on the processing

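No paired analysis was possible because each genotype had 1 library and the labels give no replicate numbers. The values here are log2 ratios of the summed members. For the mutant over the control in RPE-like cells (0.59), 17 of 18 alternatives kept the sign. It was 0.43 at a 5% mitochondrial limit, 0.25 without *Hist1h2ap* and 0.89 over the members that share no stretch of 90 bases with another gene. These unshared members were only 6, with 7.26% of control and 6.95% of mutant histone UMIs. *Hist1h1b* held most of their UMIs, so values over them here and below mainly follow that gene. In alternatives chosen after seeing the data the RPE-like ratio was 0.28 without the 5 cells with the most histone UMIs, 0.33 in cells called S or G2/M and -0.14 in cells called G1, the reverse direction. For retinal progenitor-like cells (-0.04), 16 of 17 alternatives kept the sign. It was -0.0286 with doublets kept, -0.0235 at the 5% mitochondrial limit, -0.0259 with all variable features, -0.0156 at resolution 1.6, -0.0261 without mitochondrial, haemoglobin and ribosomal protein genes in the denominator, -0.0227 with median ratio normalization, -0.0269 without *Hist1h2ap* and -0.14 over the unshared members. With at most 2000 UMIs per cell it reversed to 0.25, and the cause was not tested.

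For retinal progenitor-like over ganglion cell-like cells, control and mutant values are given in that order (1.33 and 1.20). They were 1.51 and 1.47 with doublets kept, 0.79 and 0.93 with at most 2000 UMIs per cell, 1.41 and 1.45 at the 5% mitochondrial limit, 1.40 and 1.33 with all variable features, 1.38 and 1.38 at resolution 0.4, 1.59 and 1.56 at resolution 1.6, 1.54 and 1.43 with the shorter denominator, and 1.48 and 1.35 with median ratio normalization. With cells named 1 by 1 the control value was 1.37. Without *Hist1h2ap* they were 0.47 and 0.39, and over unshared members 3.71 and 3.19. In alternatives chosen after seeing the data they were 2.96 and 2.69 without the *Hist3* pair, and -0.94 and -0.99 in cells called G1.

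For S over G1 in retinal progenitor-like cells (2.32 and 2.15) no alternative changed the sign. The values were 2.45 and 2.33 with doublets kept, 2.57 and 2.48 at the 5% mitochondrial limit, 2.41 and 2.27 with all variable features, 2.61 and 2.45 at resolution 1.6, 2.22 and 1.99 with cells named 1 by 1, 1.42 and 1.26 without *Hist1h2ap*, 3.73 and 3.64 over unshared members, and 1.98 and 2.26 after thinning to 2000 UMIs. After thinning to 5000 UMIs the control value was 2.17. The 25% of cells with the most UMIs of the S-phase list against the 25% with the fewest gave 1.38 and 1.496. The alternative with at most 2000 UMIs per cell was not run for S over G1, since phases were called at 3000 UMIs. The count of members with 20 or more UMIs was 62 over kept cells as well, with 64 at 1 or more and 57 at 100 or more. Depth limited the RPE-like class more than the retinal progenitor-like class, with 22 members at 20 or more UMIs against 60. Some other classes had fewer still, such as 5 in photoreceptor precursor-like and 9 in amacrine or horizontal-like cells.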
